A study of Saccharomyces cerevisiae with 6 samples.

Results

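SED1 and 9 other genes for abundant proteins of the yeast cell wall were followed across 3 strains of Saccharomyces cerevisiae. The members were all rows of the deposited table whose platform gene symbol was SED1, SPI1, CWP1, CWP2, CCW12, TIP1, TIR1, PIR1, PIR3 or HSP150, and all 10 were found, each as 1 spot, among 5711 genes measured. They were chosen by name, as abundant wall proteins, with their log ratios in these same strain comparisons already known, so their differences are given as a description with standard errors (SE) and without p-values. The first 7 encode wall proteins that carry a glycosylphosphatidylinositol (GPI) anchor, and the other 3 encode PIR proteins (proteins with internal repeats).

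The yeast wall is a mesh of glucan and a little chitin, coated on the outside by mannoproteins. GPI wall proteins travel to the plasma membrane on a lipid anchor, which is then cut so that the protein can be joined to beta-1,6-glucan. PIR proteins are processed by the Kex2 protease and bound directly to beta-1,3-glucan. Which of these proteins coats the cell depends on growth phase, temperature, oxygen and other stress, and cells with a weakened wall signal through the cell wall integrity pathway, from surface sensors to the MAP kinase Slt2.

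The strains were wt, described in the labels as S288C, a common laboratory background, and the mutants ssy1KO and ssy1T9. SSY1 encodes the plasma membrane sensor of external amino acids. By its name ssy1KO lacks SSY1, the series title refers to a natural variant that alters expression, and the labels say nothing more of ssy1T9, nor of medium, growth phase, treatment or mating type. Each pair of strains was compared on 2 dual-colour arrays with the dyes exchanged, 6 arrays in all, so the 3 pairs close a loop. In the pairs called KO/wt and T9/wt, replicate 1 has wt in Cy5, and in T9/KO it has ssy1T9 in Cy5. The labels do not tell whether the RNA of a pair's arrays was from separate cultures, so errors measure the spread between arrays, which may be technical.

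All values below are log ratios, taken as log2, after each array was centred on its median gene, and they are differences between strains, not levels. Their direction was taken as the one in which SSY1 is lower in ssy1KO: in ssy1KO over wt SSY1 read -1.65 and -1.10, and in ssy1KO over ssy1T9 -1.86 and -1.87. That direction is likely rather than stated, and with the opposite one every sign below turns. Fitted differences come from a limma model of all 6 arrays, and a gene counts as past the threshold when its Benjamini-Hochberg adjusted p over all genes is under 0.05. The model draws the SE of each gene strongly toward the spread typical of all genes. An SE therefore says little of how well a gene's own arrays agreed. The probe sequences and spot intensities were not used here, so the abundance of each transcript and signal shared between related genes were not examined. Since the RNA came from whole cultures, fewer cells expressing a gene and less of its RNA per cell cannot be told apart.

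By fitted difference the 7 GPI members differed between the mutants and wt and the 3 PIR members hardly did. Being chosen by name, these genes do not stand for all genes of either class. In the fit SED1, TIP1, CWP1, CWP2, CCW12 and TIR1 lay lower in both mutants, SPI1 lay higher in both, and PIR1, PIR3 and HSP150 stayed within 0.07 of wt. The arrays of CWP2 disagreed in sign in both pairs with wt, and those of CCW12 did so in KO/wt. Without a term for the dye in the model, neither CWP2 nor CCW12 was past the threshold in either mutant. In ssy1KO 6 of the 10 genes were past the threshold on the lower side and 1 on the higher side, where 10.5% of all genes were lower and 13.8% higher. In ssy1T9 the counts were again 6 and 1, where 12.1% of all genes were lower and 14.1% higher. The median of the 10 differences was -0.36 in ssy1KO and -0.28 in ssy1T9, and that of all 5711 genes was 0.00 in both. Both comparisons use the same wt, and the members were chosen with them in view, so these counts only describe the set.

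**Figure D1:**
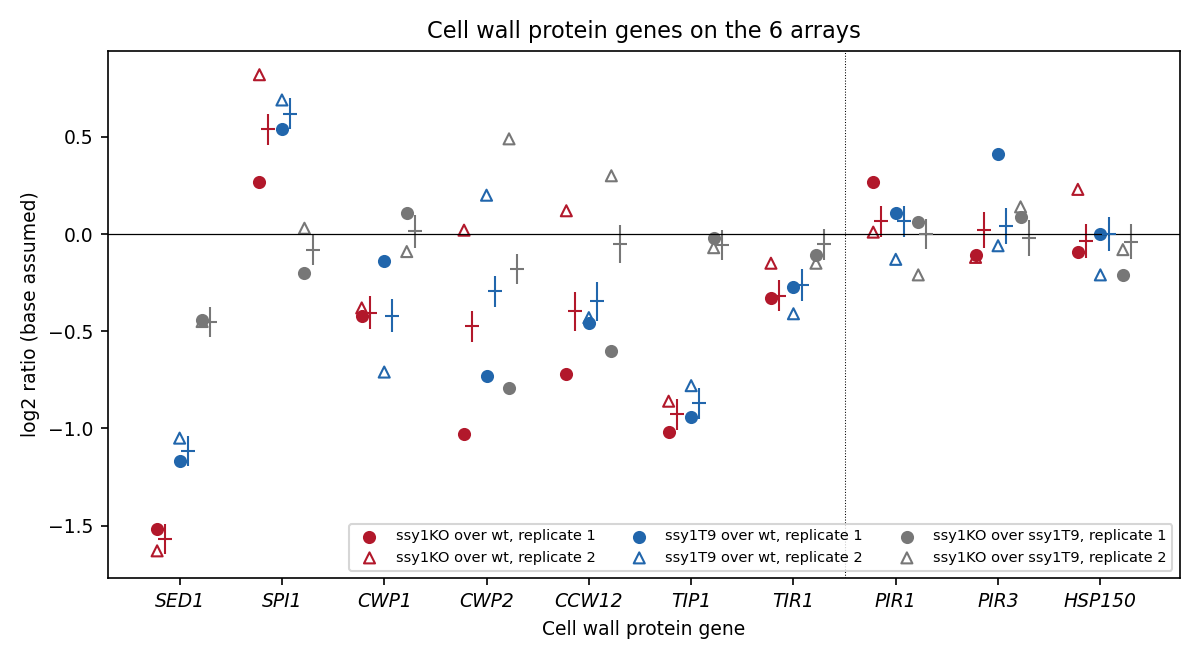
Log2 ratios of the 10 genes (vertical axis, base assumed) on each of the 6 arrays, with replicate 1 as filled circles and replicate 2 as open triangles in red for ssy1KO over wt, blue for ssy1T9 over wt and grey for ssy1KO over ssy1T9; horizontal ticks with bars are the fitted difference ± SE, and a dotted line parts GPI from PIR genes. SED1 sits lowest, from -1.63 to -1.05 on the 4 arrays with wt, while CWP2 and CCW12 spread widely within a pair.

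SED1 encodes a major structural mannoprotein of the wall, known for its abundance in stationary phase. It read -1.52 and -1.63 in ssy1KO over wt, and -1.17 and -1.05 in ssy1T9 over wt. All 4 arrays with wt were strongly negative, those of ssy1KO more so than those of ssy1T9. The fitted difference was -1.57 in ssy1KO (SE 0.08), a 2.97-fold lower transcript, and -1.12 in ssy1T9 (SE 0.08), 2.17-fold lower. SED1 was the 14th lowest of 5711 genes in ssy1KO and the 22nd lowest in ssy1T9.

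SED1 was also the member that separated the mutants. It read -0.44 and -0.45 in ssy1KO over ssy1T9 on the arrays that compare them directly, so those arrays differed by 0.01. The fitted difference was -0.45 (SE 0.08), the 9th lowest of all genes, and SED1 was the 1 member of 10 past the threshold in this comparison, where 0.298% of all genes were. The order of the SED1 transcript was therefore wt, ssy1T9, ssy1KO from high to low, with each step larger than its SE. Around the loop the arrays closed well for SED1: the KO/wt arrays gave -1.58 for ssy1KO over wt, and the path through ssy1T9 gave -1.56. The call between the mutants was lost from the T9/KO arrays alone and without a term for the dye in the model, both at -0.45. It was also lost without KO/wt replicate 1, at -0.47, and without T9/KO replicate 1, at -0.46. The difference itself stayed between -0.48 and -0.43 under the 13 alternatives run, some of which could not move it.

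TIP1 encodes a GPI protein induced by cold and heat shock. It read -1.02 and -0.86 in ssy1KO over wt, and -0.94 and -0.78 in ssy1T9 over wt. The 4 values were all clearly negative, and those of both mutants overlapped. The fitted differences were -0.93 in ssy1KO (1.90-fold lower) and -0.87 in ssy1T9 (1.83-fold lower), each with an SE of 0.08. Between the mutants TIP1 read -0.02 and -0.07, for a fitted difference of -0.06 (SE 0.08), which is smaller than its error. TIP1 was the 28th lowest gene in ssy1KO and the 39th lowest in ssy1T9.

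SPI1 encodes a GPI wall protein induced in stationary phase and by weak organic acids, and it was the member that lay higher. It read 0.27 and 0.82 in ssy1KO over wt, and 0.54 and 0.69 in ssy1T9 over wt. All 4 values were positive, with the lowest and the highest both in ssy1KO. The fitted differences were 0.54 in ssy1KO (1.45-fold higher) and 0.62 in ssy1T9 (1.54-fold higher), each with an SE of 0.08. The mutants read -0.20 and 0.03 against each other, a fitted difference of -0.08 (SE 0.08). SPI1 and SED1, both known as wall proteins of stationary phase, lay on opposite sides of wt. The labels give no growth phase, and its part in these values was not tested. Of the 10 genes SPI1 was the farthest from SED1 over the 6 arrays, at a root mean square (RMS) difference of 1.60.

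CWP1 and CWP2 encode wall mannoproteins whose genes lie side by side in the R64 reference, and they differed in how well their arrays agreed. CWP1 read -0.42 and -0.38 in ssy1KO over wt, and -0.14 and -0.71 in ssy1T9 over wt. It was negative on all 4 arrays, but the T9/wt arrays lay 0.57 apart. Its fitted differences were -0.41 in ssy1KO and -0.42 in ssy1T9, each with an SE of 0.08, and 0.01 (SE 0.08) between the mutants. Its call in ssy1KO was lost without KO/wt replicate 1, at -0.31.

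CWP2 read -1.03 and 0.02 in ssy1KO over wt, -0.73 and 0.20 in ssy1T9 over wt, and -0.79 and 0.49 in ssy1KO over ssy1T9. Within each of the 3 pairs the arrays went opposite ways, and the gaps were 1.05, 0.93 and 1.28, against a median gap of 0.23, 0.17 and 0.13 over all genes. Written as Cy5 over Cy3, CWP2 was positive on 6 of 6 arrays, from 0.02 to 1.03. The model holds such a gene-specific dye effect in an intercept, which was 0.54 for CWP2, the 16th largest in size of 5711 genes, against a median size of 0.07. With that intercept the fitted differences were -0.48 in ssy1KO and -0.30 in ssy1T9, each with an SE of 0.08. Without it CWP2 was not past the threshold in either mutant, and its call in ssy1T9 was also lost without T9/wt replicate 2, at -0.26. The call in ssy1T9 was lost as well without centring, with arrays scaled to equal spread and from the direct pair alone.

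CCW12 encodes one of the most abundant wall proteins, found where new wall is laid down. Unlike CWP2, it had Cy5 above Cy3 on both arrays only in the pairs with ssy1KO. Written as Cy5 over Cy3, CCW12 was at 0.72 and 0.12 in KO/wt, and at 0.60 and 0.30 in T9/KO. In T9/wt it was at 0.46 and -0.43, so there the sign changed with the dyes. It read -0.72 and 0.12 in ssy1KO over wt, -0.46 and -0.43 in ssy1T9 over wt, and -0.60 and 0.30 in ssy1KO over ssy1T9. The T9/wt arrays were alike and the arrays of the pairs with ssy1KO disagreed in sign. The dye intercept of CCW12, fitted across all pairs although T9/wt showed no such shift, was 0.29, the 95th largest in size. Its fitted differences were -0.40 in ssy1KO and -0.35 in ssy1T9, each with an SE of 0.10, the largest SE among the members. Its call in ssy1KO was lost without KO/wt replicate 1, at -0.38. The call in ssy1T9 was lost without KO/wt replicate 1, at -0.34, and without T9/wt replicate 2, where the value itself shrank to -0.09. Without the dye intercept, or without centring, the calls of CCW12 were lost in both mutants. The call in ssy1KO was lost from the direct pair alone, and that in ssy1T9 with arrays scaled to equal spread.

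TIR1, which encodes a GPI protein induced by cold and by lack of oxygen, had the smallest differences among the GPI genes. It read -0.33 and -0.15 in ssy1KO over wt, and -0.27 and -0.41 in ssy1T9 over wt. All 4 values were negative and the groups overlapped. The fitted differences were -0.32 in ssy1KO (1.25-fold lower) and -0.26 in ssy1T9 (1.20-fold lower), each with an SE of 0.08. Its call in ssy1KO was lost without KO/wt replicate 1, at -0.31, without centring and from the direct pair alone. Its call in ssy1T9 was lost without T9/wt replicate 1, at -0.26, T9/wt replicate 2, at -0.17, or KO/wt replicate 1, at -0.26. It was also lost there without centring, without the dye intercept and with arrays scaled to equal spread.

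**Figure D2:**
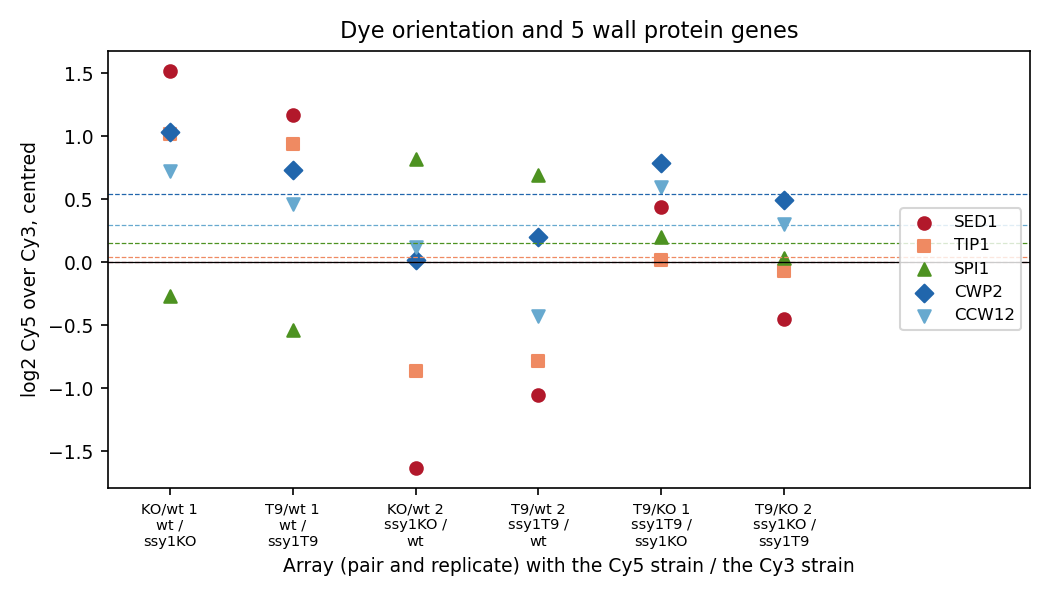
Centred log2 Cy5 over Cy3 (vertical axis) of 5 genes on each array, labelled with the Cy5 strain above the Cy3 strain; dashed lines mark each gene's dye intercept. SED1 and TIP1 change sign when the dyes of wt and a mutant are exchanged and SPI1 does so the other way, while CWP2 stays above 0 on all 6 arrays, around an intercept of 0.54.

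The direction of the smaller differences is relative to the typical gene. Without centring, the median gene lay at 0.16 in ssy1KO and 0.17 in ssy1T9, and all differences moved up by that amount. The 6 lower genes kept a negative sign, with TIR1 at -0.16 and -0.09 and CWP2 at -0.32 and -0.12 in ssy1KO and ssy1T9. The number past the threshold was then 4 lower and 1 higher in ssy1KO, and 3 lower and 1 higher in ssy1T9. SED1, TIP1 and SPI1 were past the threshold in both mutants under all 13 alternatives.

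The PIR genes lay close to wt. None of the 3 passed the threshold in limma in any comparison. Of all genes 24.3% passed in ssy1KO, 26.2% in ssy1T9 and 0.298% between the mutants. Nor did any of the 3 have an unadjusted p under 0.05, where 34.9%, 36.5% and 5.43% of all genes had. Of the 7 GPI members, 7 did so in each mutant against wt and 2 between the mutants. A count of 0 among 3 genes is too small to set against those shares. All members were chosen with these values known, so the counts only describe them. PIR1 read 0.27 and 0.01 in ssy1KO over wt, and 0.11 and -0.13 in ssy1T9 over wt, with a fitted difference of 0.07 (SE 0.08) in both. PIR3, whose gene is next to PIR1 in the R64 reference, read -0.11 and -0.12 in ssy1KO over wt, and 0.41 and -0.06 in ssy1T9 over wt, with fitted differences of 0.02 and 0.04 (SE 0.09). HSP150, which encodes a heat-inducible secreted PIR protein, read -0.09 and 0.23 in ssy1KO over wt, and 0.00 and -0.21 in ssy1T9 over wt, with fitted differences of -0.04 and 0.00 (SE 0.09). In T9/wt no PIR gene had 1 sign on both arrays.

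PIR3 and HSP150 also closed the loop least well among the 10 genes. The sum of the pair means around the loop, which is 0 without error, was -0.41 for PIR3, 0.32 for HSP150, 0.29 for CCW12 and 0.23 for both PIR1 and TIR1. For PIR3 the KO/wt arrays gave -0.12 for ssy1KO over wt and the path through ssy1T9 gave 0.29. The median size over all genes was 0.13 and the 95th percentile 0.36, so only PIR3 among the 10 lay past that percentile. SED1, SPI1, CWP1, TIP1 and CWP2 closed to within 0.09. A constant dye effect cancels in each pair mean, so closure does not show that the arrays of a pair agreed. Those of CWP2 lay 1.05, 0.93 and 1.28 apart. Being related in sequence, the PIR genes may share signal on an array, which was not tested.

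Against each other, the mutants differed little in the members other than SED1. From highest to lowest the fitted differences of ssy1KO over ssy1T9 ran from 0.01 for CWP1 to -0.18 (SE 0.08) for CWP2, and 8 of the 10 values, SED1 included, were below 0. On the T9/KO arrays CWP2 read -0.79 and 0.49, PIR1 0.06 and -0.21, and CWP1 0.11 and -0.09, so for these genes the arrays disagreed in sign. PIR3 read 0.09 and 0.14, HSP150 -0.21 and -0.08, and TIR1 -0.11 and -0.15. SED1 was the only member below -0.40 on both of these arrays.

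**Figure D3:**
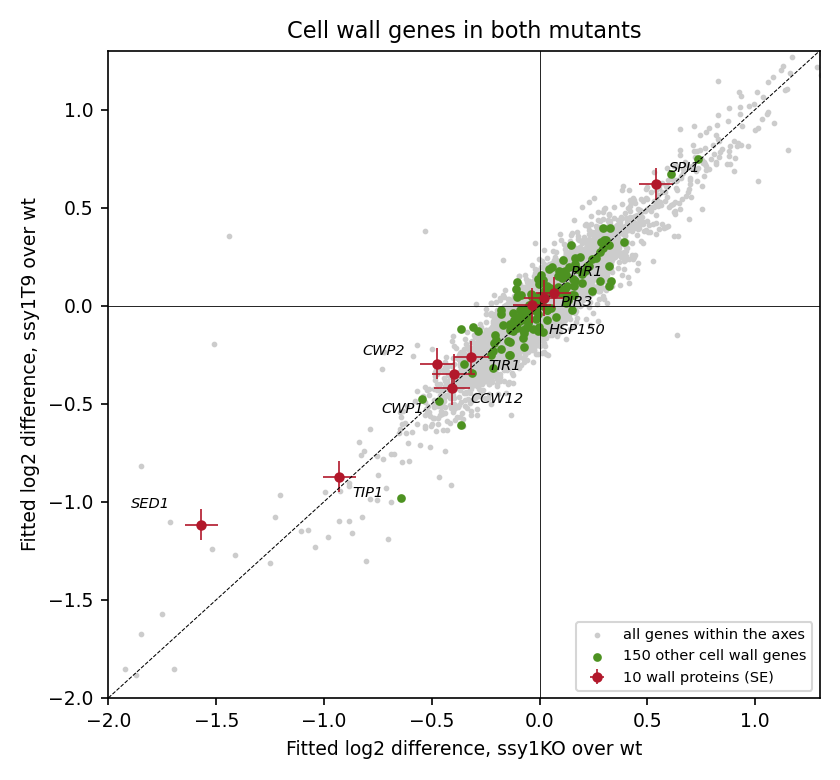
Fitted log2 difference of ssy1KO over wt (horizontal axis) and of ssy1T9 over wt (vertical axis) for all genes inside the axes (grey), 150 other cell wall genes (green) and the 10 wall protein genes (red, with SE bars); the dashed line marks equal values, and both axes share the wt arrays' strain. SED1, at -1.57 and -1.12, lies above the dashed line, and the PIR genes sit at the centre.

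The genes nearest to SED1 in profile were not members. The 5 genes with the smallest RMS difference from SED1 over the 6 arrays, of 5710 ranked, were DIP5 (0.18), which encodes a permease for acidic amino acids controlled by the sensor, FUI1 (0.18), the uridine permease gene, CHO2 (0.23), encoding a methyltransferase of phosphatidylcholine synthesis, FRE7 (0.27), encoding a putative metal reductase, and AQR1 (0.27), encoding a plasma membrane exporter. DIP5 had fitted differences of -1.52 in ssy1KO and -1.24 in ssy1T9. FUI1 lay at -1.72 and -1.11, a gap between the mutants of -0.61. Of the members TIP1 was nearest to SED1, at 0.46, and ranked 12th among all genes. CWP1 and TIR1 lay 0.19 apart and PIR1 and HSP150 0.22 apart, while SPI1 was 0.52 from its nearest member, HSP150.

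The genomic neighbours of the members were mostly near 0. Of 14 distinct neighbours in the R64 reference that were measured and are not members, 4 were called in ssy1KO and 4 in ssy1T9, or 28.6%, where 24.3% and 26.2% of all genes were called, so the share was near that of genes in general. In each mutant 2 of the 4 were lower. TIP1 lies directly beside BAP2, the sensor-controlled permease gene for branched-chain amino acids, which was at -2.68 in ssy1KO and -2.70 in ssy1T9. On the other side of TIP1, NRG2, a repressor gene, was at 0.08 and 0.05. SED1 lies between RAD55, a DNA repair gene at 0.00 and 0.05, and SHU2, another repair gene, at -0.39 and -0.22. SPI1 lies between PEA2, at 0.22 and 0.23, and UBP3, at 0.21 and 0.19. These neighbours were looked up after the members' values were known, and whether a spot can carry signal of the gene beside it was not tested.

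Fitted differences of the other wall genes ran from -0.64 to 0.74 in ssy1KO and from -0.98 to 0.75 in ssy1T9. Of 151 further genes of wall proteins, glucan, chitin, signalling, mannosylation, GPI anchors and wall proteases, 150 were measured. In ssy1KO 18 were called higher and 11 lower, or 19.3%, where 24.3% of all genes were called, with a median of -0.01 against 0.00. In ssy1T9 the counts were also 18 and 11, or 19.3%, where 26.2% of all genes were called, with a median of 0.01. Without centring the splits were 47 higher and 3 lower in ssy1KO, and 54 higher and 4 lower in ssy1T9. In limma 0 of the 150 differed between the mutants, and 8 had an unadjusted p under 0.05, or 5.33% against 5.43% of all genes.

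**Figure D4:**
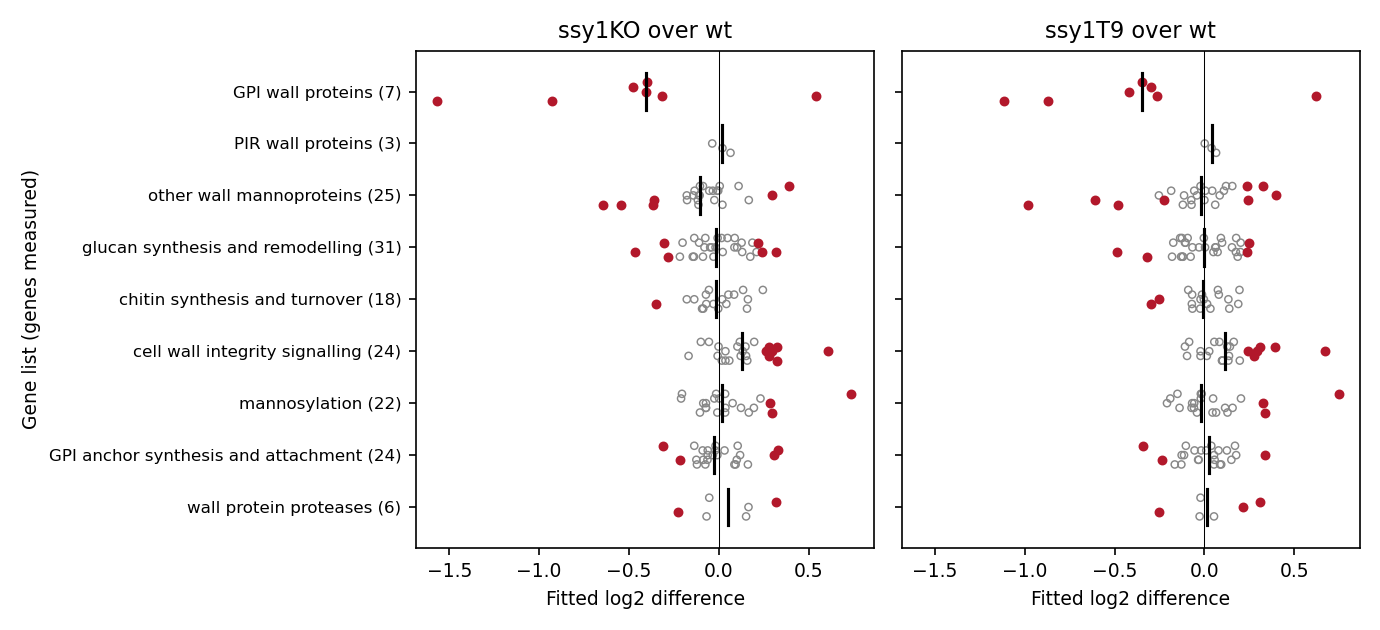
Fitted log2 difference (horizontal axis) of each gene in ssy1KO over wt (left) and ssy1T9 over wt (right), by gene list with the number measured in brackets; filled red points passed the threshold, open grey points did not, vertical jitter carries no value and black bars are list medians. The GPI members spread from -1.57 to 0.54 in ssy1KO, wider than any other list, and the PIR members lie within 0.07 of 0.

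Among 25 other wall mannoproteins, 2 were higher and 4 lower in ssy1KO, and 4 higher and 4 lower in ssy1T9, or 24% and 32%, where 24.3% and 26.2% of all genes were called. FIT2, encoding a mannoprotein that holds siderophore-bound iron in the wall, fell by 0.64 in ssy1KO (SE 0.08, limma adjusted p = 1.5e-06) and by 0.98 in ssy1T9 (adjusted p = 1.0e-09). Its relative FIT3 fell by 0.36 and by 0.61, and its call in ssy1KO was lost without centring (-0.20, adjusted p = 0.0997). SAG1, the gene of the alpha-cell agglutinin, fell by 0.55 and by 0.48 (SE 0.09), with -0.98 and -0.02 on the arrays of ssy1KO and wt, and -0.85 and -0.20 on those of ssy1T9 and wt. Its call in ssy1T9 was lost without the dye intercept (-0.48, adjusted p = 0.0599). HPF1, encoding a mannoprotein known from wine haze, rose to 0.30 and 0.40, and its call in ssy1KO was lost without KO/wt replicate 1 (0.29, adjusted p = 0.0972).

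In the glucan list of 31 genes, 3 were higher and 3 lower in ssy1KO, and 2 higher and 2 lower in ssy1T9, or 19.4% and 12.9%. NCA3, of the SUN family of wall proteins, fell by 0.47 and by 0.49 (SE 0.08, limma adjusted p = 9.5e-05 and 5.5e-05). KNH1, encoding a factor of beta-1,6-glucan synthesis, rose to 0.32 in ssy1KO, a call lost without KO/wt replicate 1 (0.29, adjusted p = 0.139), and was at 0.20 in ssy1T9. UTR2, encoding a chitin-glucan crosslinking enzyme, fell by 0.32 in ssy1T9, a call lost without T9/wt replicate 2 (-0.21, adjusted p = 0.192), and was at -0.22 in ssy1KO. SCW10, encoding a glucanase-like protein, fell by 0.31 in ssy1KO, a call lost without KO/wt replicate 2 (-0.27, adjusted p = 0.0643), and was at -0.11 in ssy1T9. For these last 3 genes a difference between the mutants did not pass. Without centring UTR2 lost its call in ssy1T9 and SCW10 in ssy1KO, each at -0.15, while KNH1 gained a call in ssy1T9, at 0.37.

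Of 18 chitin genes 1 was lower in ssy1KO and 2 in ssy1T9, or 5.56% and 11.1%, where 10.5% and 12.1% of all genes were called lower. BCH2, encoding a cargo receptor for chitin synthase traffic, fell by 0.35 and by 0.30 (SE 0.08), and its call in ssy1T9 was lost without T9/wt replicate 1 (-0.25, adjusted p = 0.136) or replicate 2 (-0.28, adjusted p = 0.0513). Without centring the call of BCH2 was lost in ssy1KO (-0.19, limma adjusted p = 0.145) and in ssy1T9 (-0.125, adjusted p = 0.331). That of CTS2 in ssy1T9 was lost there too (-0.08). CTS2, a putative chitinase gene, fell by 0.25 in ssy1T9, where its call was lost without any of 4 arrays: KO/wt replicate 1 (-0.25, adjusted p = 0.0651), T9/wt replicate 1 (-0.23, adjusted p = 0.169), T9/wt replicate 2 (-0.23, adjusted p = 0.135) or T9/KO replicate 1 (-0.25, adjusted p = 0.0547).

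The cell wall integrity list had calls on the higher side alone: of 24 measured genes, 7 were higher and 0 lower in ssy1KO, and 6 higher and 0 lower in ssy1T9. These are 29.2% and 25% of the list, where 13.8% and 14.1% of all genes were called higher and 24.3% and 26.2% in either direction. Its median was 0.13 and 0.11. WSC4, with the largest difference of this list, rose to 0.61 and 0.67 (SE 0.09, limma adjusted p = 2.0e-05 and 5.1e-06). MTL1, a sensor gene, rose to 0.33 and 0.40, with its call in ssy1KO lost without KO/wt replicate 1 (0.19). SDP1, encoding a phosphatase that acts on the MAP kinase Slt2, rose to 0.32 in ssy1KO and was at 0.10 in ssy1T9. SWI6, encoding a transcription cofactor, rose to 0.31 in ssy1T9, a call lost without T9/wt replicate 2 (0.25, adjusted p = 0.0999), and was at 0.15 in ssy1KO. A difference between the mutants passed for neither SDP1 nor SWI6.

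Of 22 mannosylation genes 3 rose in each mutant, or 13.6%, where 13.8% of all genes were called higher in ssy1KO and 14.1% in ssy1T9. MNN4, which encodes a positive regulator of mannosylphosphate addition, rose to 0.74 and 0.75 (SE 0.08, limma adjusted p = 1.9e-07 and 1.5e-07), the mannosyltransferase gene MNN1 to 0.30 and 0.34, and the O-mannosyltransferase gene PMT3 to 0.29 and 0.32. MNN1 and PMT3 lost their call in ssy1KO without KO/wt replicate 1 (adjusted p = 0.0774 at 0.31 and 0.11 at 0.28), PMT3 also without KO/wt replicate 2 (0.26, adjusted p = 0.0658). In ssy1T9 MNN1 lost it without T9/wt replicate 2 (0.28, adjusted p = 0.0596) and PMT3 without T9/wt replicate 1 (0.28, adjusted p = 0.0885).

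Of 24 GPI anchor genes 2 rose and 2 fell in ssy1KO, and 1 rose and 2 fell in ssy1T9, or 16.7% and 12.5%, where 24.3% and 26.2% of all genes were called. GPI19, encoding a subunit of the first enzyme of anchor synthesis, fell by 0.31 and by 0.34, and GUP1, which encodes a protein that remodels the anchor lipid, rose to 0.31 and 0.34. GPI18 rose to 0.33 in ssy1KO (SE 0.10), and GPI8, the transamidase gene, fell by 0.22 and by 0.23. Each of these 4 genes lost a call when single arrays were left out: GPI19 in ssy1KO without KO/wt replicate 1 (-0.27, adjusted p = 0.121), GUP1 in ssy1T9 without T9/wt replicate 1 (0.34, adjusted p = 0.0654) and in ssy1KO without KO/wt replicate 2 (0.25, adjusted p = 0.109) or T9/KO replicate 1 (0.25, adjusted p = 0.0612). GPI18 lost it without T9/wt replicate 1, KO/wt replicate 2 or T9/KO replicate 1 (adjusted p = 0.0633, 0.332 and 0.148). GPI8 lost it in ssy1KO whichever array was left out and in ssy1T9 without either array of T9/wt, KO/wt replicate 1 or T9/KO replicate 1. Without centring GPI19 lost its call in both mutants, at -0.15 in ssy1KO and -0.17 in ssy1T9. GPI8 did so too, at -0.06 in each.

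Of 6 protease genes 1 rose and 1 fell in ssy1KO, and 2 rose and 1 fell in ssy1T9, or 33.3% and 50% of a small list, where 24.3% and 26.2% of all genes were called. YPS3, encoding a yapsin, a GPI-anchored protease at the cell surface, rose to 0.32 and 0.31, with the call in ssy1T9 lost without T9/wt replicate 1 (0.22, adjusted p = 0.203) or replicate 2 (0.26, adjusted p = 0.0772). The yapsin gene MKC7 fell by 0.23 and by 0.25, and the yapsin gene YPS1 rose to 0.22 in ssy1T9 and was at 0.17 in ssy1KO. The calls of MKC7 and YPS1 were lost in 5 or more of the 13 alternatives. KEX2, whose product cuts PIR precursors and which was named after its values were seen, did not pass, at 0.15 in ssy1KO and 0.05 in ssy1T9.

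Genes that mark the mating types were examined beside these groups, since SAG1 is specific to alpha cells. Of 5 alpha-cell genes 3 fell in ssy1KO and 2 in ssy1T9, where 10.5% and 12.1% of all genes were called lower, with values from -0.55 to 0.13 and from -0.48 to 0.16. Besides SAG1 these were the pheromone genes MF(ALPHA)2, by 0.52 and by 0.43, and MF(ALPHA)1, by 0.31 in ssy1KO (limma adjusted p = 0.0458). MF(ALPHA)1 was at -0.26 in ssy1T9 (adjusted p = 0.0932), and the difference between the mutants did not pass (-0.05, adjusted p = 0.983). Its arrays went opposite ways, at -1.30 and 0.51 in ssy1KO over wt and -0.55 and 0.22 in ssy1T9 over wt, around a dye intercept of 0.54. Of 6 a-cell genes 1 rose in ssy1KO, where 13.8% of all genes were called higher, with values from -0.11 to 0.24. In ssy1T9 0 passed by limma, where 26.2% of all genes did, with values from -0.16 to 0.22. There 2 of the 6 had an unadjusted p under 0.05, or 33.3%, against 36.5% of all genes. Of the defining receptor genes, STE3 of alpha cells was at 0.13 and 0.16 and STE2 of a cells at -0.03 and 0.09, and neither passed. The part of these genes in the values of the wall proteins was not tested.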

How the data were processed

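Total RNA of 3 strains was labelled with Cy5 and Cy3 by the Genisphere 3DNA system, per the labels, and 6 dual-colour arrays were hybridised. The deposited values are log ratios of the channels, read as log2, 1 per spot and array. No label or header names the scanner, image software or normalization (not given in the sources used here), and the log base and direction were assumed as the results state. Column medians over genes ran from -0.58 to -0.08, so the deposited columns were not centred. The table holds 7744 rows, with 0 values missing. The platform annotation gives 1 gene symbol for 6116 rows, several for 0 and none for 1628, which were left unnamed. R64 names were assigned to 6111 rows by gene identifier. Spots of a gene were averaged, giving 5711 genes.

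Each array was centred on its median gene. limma 3.58.1 in R 4.3.3 (lmFit, eBayes) fitted, over all 6 arrays, an intercept per gene for the dye and the effect of each mutant against wt, with 3 residual and 20.67 prior degrees of freedom. The script was tested on simulated data. The number of arrays limits the precision, with a median SE of 0.08. The members and gene lists were chosen with earlier results of these data known. Genes named from a list are up to 4 called genes of largest difference, and the neighbours of SED1 in profile are the 5 nearest. WSC1 had no row. The alternatives were 13: the centring, array spread, dye term, direct arrays, first spot, robust prior and each array left out.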

Additional observations from a re-analysis of the deposited data

Results flagged for a closer look

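SED1 differed between the mutants, at -0.45 in ssy1KO over ssy1T9 (SE 0.08), because its difference from wt was larger in ssy1KO, at -1.57, than in ssy1T9, at -1.12. The contrast of both mutants in the limma fit put it past the threshold. SED1 was chosen with this result known, so the contrast is no independent test. The call was held under 9 of 13 alternatives. It was lost without the dye intercept (-0.45), with the T9/KO arrays alone (-0.45), without KO/wt replicate 1 (-0.47) and without T9/KO replicate 1 (-0.46). Pairs of 2 arrays are too small to look for an array that stands apart within a group.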

How the results depend on the processing

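No paired analysis was possible because the replicate numbers follow dye orientation or order and tie no arrays across pairs. The sign of the 7 GPI members against wt was kept under all 13 alternatives. Of 390 recomputed values of the members 22 moved by more than 1 SD of the fit, 17 of them without centring. The first-spot, robust-prior and no-intercept settings could not move a member's value, so those values among the 390 were fixed in advance. Each member has 1 spot, the prior acts on the SE alone and the dyes are balanced within each pair. For 24 other named genes, 831 of 936 recomputed values kept their side of the threshold, 94 lost a call and 11 gained it.

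Counts of calls depended more on the settings. For all genes in ssy1KO against wt (1386), they were 883 with arrays scaled to equal spread, 740 without the dye intercept, 882 from the direct pair and 626 to 1513 with an array left out. For ssy1T9 (1494) they were 812 without the intercept, 859 from the direct pair and 793 to 1457 with an array left out. Between the mutants (17) they were 6, 7 and 7 to 19. Without centring 92.1% of calls in ssy1KO were higher, against 56.9%, and 91.3% in ssy1T9, against 53.7%.

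Members called numbered 4 to 7 with an array left out in either mutant (4 without KO/wt replicate 1 in ssy1KO and without T9/wt replicate 2 in ssy1T9). In ssy1T9 they were 4 without centring, with scaled arrays or without the intercept. Between the mutants they were 0 without the intercept or from the direct pair, and 0 to 1 with an array left out.

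Of the other wall genes 50 were called in ssy1KO without centring, 19 without the intercept, 15 from the direct pair and 13 to 36 with an array left out. In ssy1T9 the counts were 58, 14, 18 and 13 to 31. The lowest counts came without KO/wt replicate 1 in ssy1KO and T9/wt replicate 1 in ssy1T9. Between the mutants 1 gene, FIT2, was called when centred on all rows, with scaled arrays or with a robust prior, and 0 with any array left out. With a log base other than 2 the folds would differ.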
